A study of Mus musculus with 22 samples.

Results

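Interferon response genes are genes that a cell transcribes more strongly after it has received interferon, and 36 of them, chosen by name, were followed across cultures of primary mouse embryonic fibroblasts (MEFs). Each gene was read from 1 probe set, a group of array probes designed against a transcript. Where several probe sets measured a gene, and the platform annotation gave them to that gene alone, the one with the highest mean was used. In this way 34 of the 36 genes were measured, out of 18193 genes in all. Isg15, a ubiquitin-like protein, had only a probe set shared with another gene and was left out, and Ifi44 had no probe set in the annotation used here.

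The cells behind all 22 arrays were infected with an adenovirus, and RNA was taken 7 days later. The control group held 5 arrays of cells labelled wild type that had received adenoviral GFP. The oncogene group (5 arrays) carried a mutant oncogene behind a stop cassette, which adenoviral Cre removed. The Wt1-null group (5 arrays) was made from Wt1f/f cells, in which adenoviral Cre was used to delete the gene of the transcription factor Wt1. The double group (7 arrays) received adenoviral Cre to do both. The virus therefore differed between the control and every other group, and in each comparison with the control the effect of the virus and that of the genotype cannot be told apart. Strain and embryo age are not given in the sources used here, and replicates are not said to be separate embryos. The p-values thus measure the spread between these arrays, which may be partly technical. The design text counts 6 oncogene samples, of which 5 were analysed here.

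Type I interferons, such as interferon beta, bind a receptor made of Ifnar1 and Ifnar2, and kinases at the receptor then phosphorylate transcription factors, Stat2 among them. Stat2 joins Irf9 in a complex that binds the interferon-stimulated response element (ISRE) in the promoters of its target genes. Interferon gamma acts through its own receptor and through another promoter element, the gamma-activated site (GAS). Fibroblasts can make interferon beta and respond to both kinds of interferon.

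RefSeq's promoter table for mouse build GRCm38.p6, which spans 250 bases before to 50 bases after each start, held 27 of the 36 genes. The ISRE core GAAANNGAAA was searched on both strands and was found for 14 of these 27 genes (51.9%), against 1079 of 27025 genes in the whole table (3.99%) and 3.44% of its 32851 promoters. GAS, searched as TTCNNNGAA, was found for 7 of the 27 (25.9%), against 2582 of 27025 genes (9.55%) and 8.3% of all promoters. Bases may count for both motifs where these overlap. A match describes letters only and does not show that a factor binds there. Shown here are the stretches around the ISRE core in the 6 measured genes that held one upstream of the start and differed most between group means. They are written 5′ to 3′ on the gene's own strand, with the core in capitals, and adjacent capitals in Gbp3 and Irgm1 are 2 overlapping matches.
Ifit3, chr19:34583343-34583446, plus strand: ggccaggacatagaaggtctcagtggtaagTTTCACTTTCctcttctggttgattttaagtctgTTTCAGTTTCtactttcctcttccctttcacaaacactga
Ifit1, chr19:34640755-34640843, plus strand: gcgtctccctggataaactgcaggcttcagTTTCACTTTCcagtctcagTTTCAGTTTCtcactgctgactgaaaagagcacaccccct
Igtp, chr11:58199492-58199555, plus strand: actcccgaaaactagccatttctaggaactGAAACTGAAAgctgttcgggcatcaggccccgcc
Gbp3 (1 of 2 promoters in the table), chr3:142559969-142560043, plus strand: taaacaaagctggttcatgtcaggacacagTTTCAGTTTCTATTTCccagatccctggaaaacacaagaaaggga
Irgm1, chr11:48871421-48871480, minus strand: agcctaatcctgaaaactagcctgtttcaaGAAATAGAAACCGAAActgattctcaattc
Stat2, chr10:128270248-128270315, plus strand: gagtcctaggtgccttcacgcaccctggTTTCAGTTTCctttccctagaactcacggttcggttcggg

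The labelled cell type was checked first. All 9 fibroblast markers, among them the collagen genes Col1a1 and Col1a2, were measured, with gene means from 11.11 to 14.83 on the log2 scale of the arrays. Of 9 leukocyte markers 2 lay at the background, and so did 3 of 6 endothelial and 1 of 6 epithelial markers; here background is the highest value, 5.06, of 3 Y-linked genes in the 9 arrays with high Xist. Xist, transcribed from the inactive X chromosome of female cells, was high in 5 of 7 double arrays, in 2 of 5 arrays of the control and of the Wt1-null group, and in 0 of 5 oncogene arrays. Wt1 lay between 4.16 and 4.77 in all arrays, at the background, so it gave no check of the labels. Wt1-null replicate 2 and double replicate 2, of different groups, were the most alike of all pairs. The SD of their difference was 0.152 over all probe sets (correlation over probe sets 0.998), and Wt1-null replicates 3 and 4 followed at 0.162. The next pair, of 2 control arrays, stood at 0.242. Double replicate 4 stood farthest from the rest, with a mean correlation of 0.932 with the other arrays over genes.

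No measured interferon response gene passed the test in any comparison, and the spread between arrays of a group was wide. The mean over the 34 genes was 8.17 ± 0.40 (SD, n = 5) on the log2 scale in control arrays, 8.45 ± 0.34 (n = 5) in oncogene, 7.88 ± 0.23 (n = 5) in Wt1-null and 8.38 ± 0.26 (n = 7) in double arrays. The Wt1-null arrays thus lay lowest and the oncogene and double arrays highest, but the ranges of the groups overlapped. Control arrays ran from 7.84 to 8.83, oncogene arrays from 7.91 to 8.79, Wt1-null arrays from 7.57 to 8.19 and double arrays from 7.91 to 8.66. The mean over all genes was nearly constant, between 7.69 and 7.72 in the groups. In bulk RNA, fewer responding cells and less RNA per cell cannot be told apart.

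**Figure D1:**
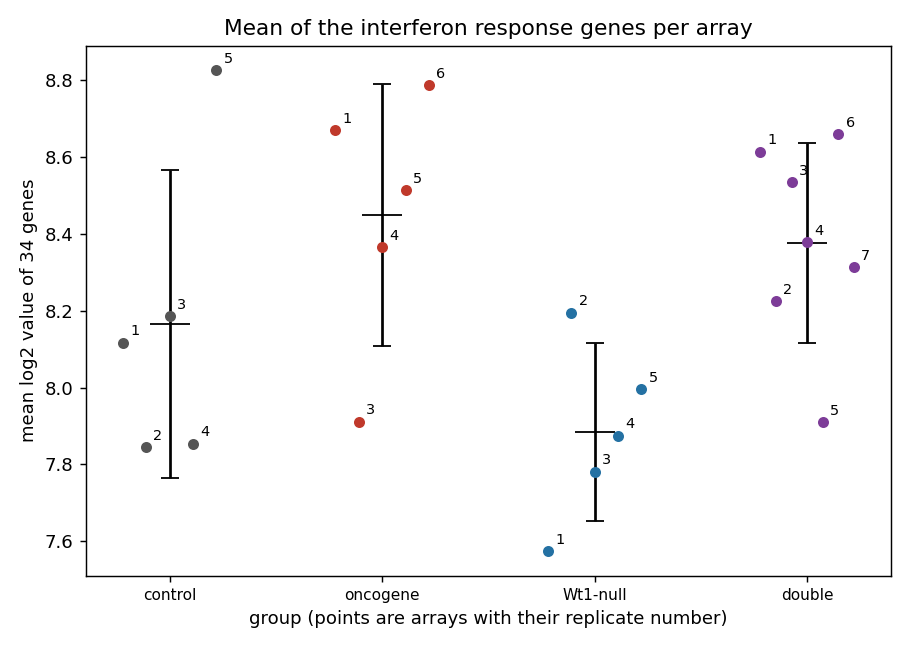
Mean log2 value of the 34 measured interferon response genes in each array (vertical axis), by group (horizontal axis). Points are arrays with their replicate number, and bars show the group mean and SD; the Wt1-null arrays lie between 7.57 and 8.19, and control replicate 5 is the highest array of all at 8.83.

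Against the control, 28 of 34 genes were higher in the oncogene group and 6 lower, with a median difference of 0.27 (log2), beside −0.03 over all genes. In limma's test 0 of 34 passed the threshold, an adjusted p of 0.05, while 2.04% of all genes did; at an unadjusted p below 0.05 there were 2 (5.88%), beside 15% of all genes. In Wt1-null cells 28 of 34 genes were lower than in the control, by a median of −0.28, beside −0.05 over all genes. None of the 34 passed (0 in limma's test, beside 0.104% of all genes), and 4, all of them lower, had an unadjusted p below 0.05 (11.8%, beside 12.7%). In double cells 26 of 34 genes were higher than in the control, with a median of 0.17, beside −0.02 over all genes. Again 0 passed in limma's test, beside 5.93% of all genes, and 5 had an unadjusted p below 0.05 (14.7%, beside 20.1%). In these comparisons the share of interferon response genes with a low p was below that of all genes. The 3 comparisons share the control arrays.

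Between groups that all received Cre, most of the genes had a higher mean in the groups with the oncogene than in Wt1-null cells. In double against Wt1-null cells all 34 of the measured genes were higher, with a median difference of 0.33, beside 0.04 over all genes, of which 58% were higher. There 0 of 34 passed in limma's test, beside 0.0824% of all genes, but 14, all higher, had an unadjusted p below 0.05 (41.2%, beside 14.8%). In oncogene against Wt1-null cells 32 of 34 were higher, by a median of 0.42, beside 0.03. In that comparison 0 passed in limma's test, beside 0.0165% of all genes, and 14 had an unadjusted p below 0.05 (41.2%, beside 7.14%). These comparisons share the Wt1-null arrays. They also run along the accession numbers of the arrays, which fall into 3 sets: 5 of 5 Wt1-null arrays are in the first and second set, and 7 of 7 double and 4 of 5 oncogene arrays in set 3. Set 3 also holds 4 of 5 control arrays, so Wt1-null against control runs along the sets too. With the set as a fixed block the median difference was 0.44 in double against Wt1-null cells, where 30 rather than all 34 genes were higher, and 0.52 in oncogene against Wt1-null cells, where 33 were. Again 0 of the 34 genes were called in limma's test. In Wt1-null against control cells the median with this block was −0.31, with 7 of 34 genes higher and 0 called. Outside the Wt1-null group, the first and second set held only oncogene replicate 1 and control replicate 1. Their means over the 34 genes were 8.67 and 8.12. The blocked differences from Wt1-null cells therefore rest on these single arrays. Double and Wt1-null arrays share no set, so that within a set these groups cannot be compared, and what the sets stand for is not given in the sources used here.

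Double against oncogene cells gave the smallest differences. Of the 34 genes 27 were lower in double cells, by a median of −0.12, beside 0.01 over all genes. In limma's test 0 of the 34 passed, as did 0% of all genes, and 0 of the 34 had an unadjusted p below 0.05, beside 3.09% of all genes. The intervals remain wide: for Oasl2 the 95% interval of the difference ran from −1.44 to 1.0. The interaction, which is the oncogene's effect in Wt1-null cells minus its effect in cells with Wt1 and which contains the control's GFP virus, had a median of 0.15, beside 0.06 over all genes. Here 0 of 34 passed in limma's test, beside 0.011% of all genes, and 1 had an unadjusted p below 0.05 (2.94%, beside 8.55%).

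**Figure D2:**
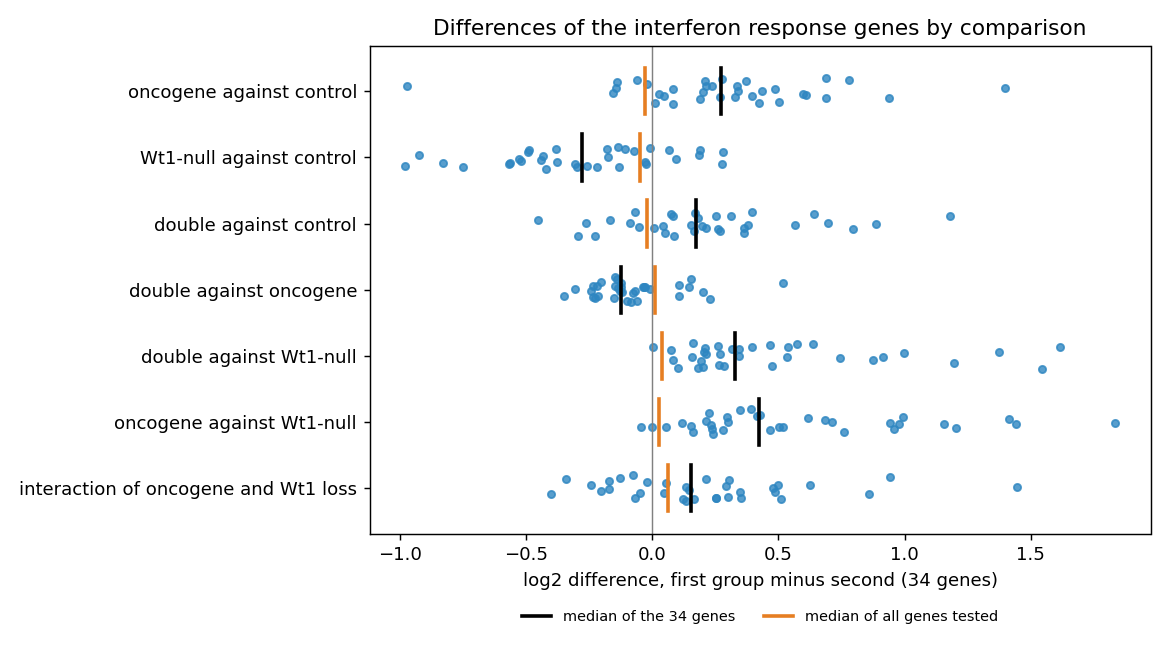
Difference between group means (log2, horizontal axis) of each of the 34 genes in 7 comparisons (rows); black bars mark the median of the 34 genes and orange bars the median of all 18193 genes. The points of double against Wt1-null all lie above 0, with a median of 0.33, and those of double against oncogene lie closest to 0.

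Groups whose arrays did not overlap at all were few. Trim25 was higher in every oncogene array than in every control array, 1 of 34 genes, beside 5.94% of all genes. Zbp1 was lower in every Wt1-null array than in every control array, again 1 of 34, beside 5.68%. Igtp and Dhx58 were higher in every oncogene than in every Wt1-null array, 2 of 34 beside 1.33%. Ifit3 was higher in every double than in every Wt1-null array, 1 of 34 beside 0.923%. No gene of the 34 separated double from control arrays (4.28% of all genes did) or double from oncogene arrays (0.0879% did).

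The signalling members were the transcription factors Stat2, Irf1, Irf7 and Irf9. All 4 were lower in Wt1-null than in control cells, with a median difference of −0.51, while oncogene cells differed from the control by a median of −0.04 and double cells by −0.14. Irf1, an activator of interferon and antigen presentation genes, had group means of 9.70 ± 0.16 (SD, n = 5) in control, 9.68 ± 0.30 (n = 5) in oncogene, 9.18 ± 0.30 (n = 5) in Wt1-null and 9.65 ± 0.42 (n = 7) in double arrays. It was lower in Wt1-null than in control cells by 0.52 ± 0.20 (SE), with a limma adjusted p of 0.306. Irf9, the DNA-binding partner of Stat2, stood at 9.11, 8.95, 8.54 and 8.88 in control, oncogene, Wt1-null and double cells. Stat2 means were 8.19, 8.13, 7.70 and 7.90 in the same order. Irf7, which drives a second wave of interferon production, stood at 7.38, 7.57, 6.88 and 7.42. In each of these 4 genes the Wt1-null mean was the lowest of the group means, and none of the differences passed the test.

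Among the sensors and regulators, Trim25 came nearest to the threshold. Trim25, a ubiquitin ligase that activates the RNA sensor RIG-I, had values of 10.11, 9.84, 9.53, 9.94 and 10.19 in control replicates 1 to 5, and of 10.72, 10.56, 11.31, 10.39 and 10.53 in oncogene replicates 1, 3, 4, 5 and 6. In Wt1-null replicates 1 to 5 it had values of 9.62, 10.50, 9.91, 9.998 and 9.93, and in the 7 double arrays it ran from 9.97 to 11.23 with a median of 10.53. Oncogene arrays all lay above control arrays, and Wt1-null replicate 2 lay among the oncogene arrays rather than with the rest of its group. Trim25 was higher by 0.78 ± 0.22 in oncogene than in control cells, 1.72-fold (limma adjusted p = 0.0642), and by 0.64 ± 0.20 in double cells, 1.56-fold (adjusted p = 0.0625). It was higher by 0.71 ± 0.22 in oncogene than in Wt1-null cells (adjusted p = 0.358). Both comparisons with the control passed without Wt1-null replicate 2 (adjusted p = 0.0471 and 0.0468) or without double replicate 1 (0.0381 and 0.019). The first also passed without double replicate 4 (0.0302), and the second without oncogene replicate 4 (0.0406) or double replicate 6 (0.0468). A second probe set of Trim25 gave a difference from the control of 0.77 in oncogene cells, and a dimmer one −0.07.

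Usp18, a protease that removes Isg15 and dampens the receptor, had values of 7.85, 7.14, 7.93, 6.82 and 9.40 in control replicates 1 to 5, and of 8.94, 7.72, 8.87, 8.93 and 9.37 in oncogene replicates 1, 3, 4, 5 and 6. Its Wt1-null values were 6.72, 7.84, 7.43, 7.98 and 8.07, and its double values ran from 6.91 to 9.30 with a median of 8.91. Control replicate 5 was the highest of the 22 arrays, and the control overlapped every other group with or without it. The difference of oncogene from control cells was 0.94 ± 0.46 (limma adjusted p = 0.347). Dhx58, a helicase related to RIG-I, stood at 5.59, 5.31, 5.85, 5.76 and 6.98 in the control, at 6.32, 5.58, 6.04, 6.26 and 6.46 in the oncogene group, at 5.15, 5.48, 5.21, 5.55 and 5.47 in the Wt1-null group, and from 5.33 to 6.44 (median 5.88) in the double group. Every oncogene value of Dhx58 exceeded every Wt1-null value, by 0.76 ± 0.26 between the means (adjusted p = 0.419).

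Zbp1, a sensor of Z-form nucleic acids, had a narrow Wt1-null group. Its values ran from 6.27 to 6.80 in control arrays (median 6.53), from 6.10 to 6.70 in oncogene (median 6.29), from 6.05 to 6.20 in Wt1-null (median 6.09) and from 6.00 to 6.54 in double arrays (median 6.25). Zbp1 was lower in Wt1-null than in control cells by 0.42 ± 0.12 (limma adjusted p = 0.184), and it passed when only the arrays of these 2 groups entered the fit (adjusted p = 0.046). With the accession set as a fixed block over all arrays the difference on the first probe set was −0.54 and did not pass (limma adjusted p = 0.354). For Zbp1 double cells lay between both groups, 0.12 ± 0.11 below the oncogene cells (adjusted p = 1), and its interaction was 0.30 ± 0.16 (adjusted p = 0.58). Ifih1, the RNA sensor MDA5, had group means between 7.73 and 7.88, closer together than the SD of any group, from 0.52 to 0.74.

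The antiviral effectors were the largest class, with 15 measured genes. In oncogene cells 13 of 15 were higher than in the control, in Wt1-null cells 13 of 15 were lower, and in double cells 12 of 15 were higher. All 15 were higher in double than in Wt1-null cells, by a median of 0.26. Ifit1 binds viral RNA and Ifit3 is its partner protein, and both promoters shown above hold 2 ISRE cores.

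Ifit3 had the smallest p of the 34 genes in both comparisons with Wt1-null cells. Its values were 8.48, 8.02, 8.90, 8.31 and 9.90 in control replicates 1 to 5 and 9.89, 8.46, 9.26, 8.84 and 9.34 in oncogene replicates 1, 3, 4, 5 and 6. In Wt1-null replicates 1 to 5 it stood at 7.60, 8.62, 7.40, 7.31 and 7.78, and in double arrays from 8.63 to 9.83 with a median of 8.81. Each double array was above each Wt1-null array, but Wt1-null replicate 2, at 8.62, came close to the lowest double array, double replicate 2, at 8.63. Ifit3 was higher in double than in Wt1-null cells by 1.38 ± 0.32, 2.60-fold (limma adjusted p = 0.081), and higher in oncogene than in Wt1-null cells by 1.41 ± 0.35 (adjusted p = 0.216). Without Wt1-null replicate 2 both passed, with differences of 1.60 (limma adjusted p = 0.00662) and 1.63 (0.0236), beside 5.08% and 1.06% of all genes. With that array and double replicate 2 both left out they also passed, at 1.68 (0.00835) and 1.63 (0.0258). Against the control, Wt1-null cells were lower by 0.98 ± 0.35 (adjusted p = 0.271), and the interaction was 0.94 ± 0.47 (0.579).

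Oasl2, a relative of the oligoadenylate synthetases, had the widest range of group means, 1.83. It stood at 5.81, 5.69, 6.63, 5.42 and 8.42 in the control and at 7.63, 5.70, 8.38, 8.29 and 8.96 in the oncogene group. Wt1-null values were 5.63, 6.44, 5.05, 5.87 and 6.81, and double values ran from 6.00 to 8.59 with a median of 7.88. The control split into 4 low arrays and replicate 5, and the oncogene group into 4 high arrays and replicate 3, so that the 2 groups overlapped at both ends. Between oncogene and control cells the difference of Oasl2 was 1.40 ± 0.63 (limma adjusted p = 0.294).

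Ifit1 was again highest in control replicate 5, with 8.21, 6.59, 7.77, 6.70 and 9.53 in the control and 9.32, 7.20, 6.89, 8.36 and 8.89 in the oncogene group. Its Wt1-null values were 6.14, 8.37, 6.65, 6.91 and 6.58, with replicate 2 apart from the others, and its double values ran from 6.33 to 8.94 (median 8.34). The difference between oncogene and Wt1-null cells was 1.20 ± 0.61. Parp14, an ADP-ribosyltransferase, had 6.98, 6.58, 6.55, 6.22 and 7.32 in the control, 7.84, 6.34, 6.96, 7.48 and 7.55 in the oncogene group and 5.72, 6.60, 6.12, 6.36 and 6.64 in the Wt1-null group. In double arrays Parp14 ran from 6.37 to 7.43 with a median of 6.93. It was higher in oncogene than in Wt1-null cells by 0.94 ± 0.27 (limma adjusted p = 0.323), and only oncogene replicate 3 fell within the Wt1-null range. In double cells it was 0.31 ± 0.25 below the oncogene cells (adjusted p = 1).

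Xaf1, a pro-apoptotic protein that antagonises the inhibitor XIAP, was 1 of the 2 effectors with a lower mean in oncogene than in control cells; the other was Ifi35. Its values were 8.84, 8.69, 9.95, 9.20 and 10.42 in the control, 8.90, 7.26, 7.65, 8.83 and 9.60 in the oncogene group, 8.003, 8.97, 8.54, 8.48 and 8.47 in the Wt1-null group, and from 7.51 to 10.01 (median 9.26) in the double group. It was lower than in the control by 0.97 ± 0.51 in oncogene cells (limma adjusted p = 0.38) and by 0.93 ± 0.51 in Wt1-null cells (0.45), and its interaction was 1.45 ± 0.69 (0.579). A second probe set of Xaf1 went the other way: the difference of oncogene from control cells was 2.85 there, without passing. In that comparison the direction for Xaf1 thus depends on the probe set.

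Rsad2 (viperin) had small differences with little spread. Its group means were 6.80 ± 0.20 (SD, n = 5) in control, 6.82 ± 0.11 (n = 5) in oncogene, 6.66 ± 0.21 (n = 5) in Wt1-null and 6.98 ± 0.16 (n = 7) in double arrays. The difference between double and Wt1-null cells was 0.32 ± 0.11 (limma adjusted p = 0.174). It passed without Wt1-null replicate 2 (0.39, limma adjusted p = 0.0402), beside 5.08% of all genes, and was 0.14 with the accession set as a block. Between double and oncogene cells it was 0.15 ± 0.11 (adjusted p = 1), and the interaction was 0.29 ± 0.16 (0.585), or 0.14 with that block. The other 2 probe sets of Rsad2 gave differences between double and Wt1-null cells of 0.09 and 0.32.

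Of the remaining effectors, Ifi35 was lower in Wt1-null than in control cells by 0.38 ± 0.18 (limma adjusted p = 0.388), with group means of 11.22, 11.08, 10.84 and 11.05 in control, oncogene, Wt1-null and double cells. Ifit2, an RNA-binding relative of Ifit1, stood at 8.63, 9.12, 8.82 and 8.90 in the same order. Bst2 (tetherin, which holds budding virus at the membrane) stood at 8.87, 9.30, 9.06 and 9.24. Both genes had their lowest mean in the control. Oas2, an oligoadenylate synthetase, had group means from 6.64 to 6.94, and Oasl1 from 6.27 to 6.73. Mx2, a dynamin-like GTPase, had means from 6.35 to 6.56, Ifi27 from 10.84 to 11.19 and Ifitm3, which blocks entry of virus through endosomes, from 13.53 to 13.79. In these genes the groups differed by less than 0.50. Mx1, also a dynamin-like GTPase, lay within the range of the background in every group, with a mean of 4.82. Its difference between double and oncogene cells was −0.15 ± 0.13 (adjusted p = 1).

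The interferon-inducible GTPases act at the vacuoles of intracellular pathogens. All 5 were higher in oncogene than in control cells, by a median of 0.40, and all 5 in double than in control cells, by a median of 0.31. Iigp1 had values of 7.30, 5.78, 7.43, 6.02 and 9.65 in the control, 8.74, 6.64, 6.55, 8.65 and 9.04 in the oncogene group and 4.96, 8.49, 6.40, 6.24 and 6.32 in the Wt1-null group. In double arrays Iigp1 ran from 6.54 to 9.42 with a median of 8.28. The span within the control alone was wider than the 1.55 between the group means. Between double and Wt1-null cells the difference of Iigp1 was 1.55 ± 0.70 (limma adjusted p = 0.312).

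Igtp, whose promoter holds 1 ISRE core, was tighter. It stood at 8.08, 7.70, 8.13, 7.80 and 9.05 in the control, 8.54, 7.98, 8.83, 8.53 and 8.87 in the oncogene group and 7.15, 7.83, 7.54, 7.56 and 7.88 in the Wt1-null group. Double arrays ran from 7.65 to 8.94 with a median of 8.76. The oncogene arrays all lay above the Wt1-null arrays, by 0.96 ± 0.27 between the means (limma adjusted p = 0.318). Double cells were higher than Wt1-null cells by 0.87 ± 0.25 (0.131), and this passed with Wt1-null replicate 2 and double replicate 2 left out (1.04, adjusted p = 0.0378). Irgm1, a regulator of the other GTPases, was higher in double than in control cells by 0.57 ± 0.23 (adjusted p = 0.152), with group means of 8.94, 9.28, 9.22 and 9.51 in control, oncogene, Wt1-null and double cells. Guanylate-binding proteins Gbp3 and Gbp2 had group means from 6.81 to 7.43 and from 7.74 to 8.13, lowest in Wt1-null and highest in oncogene cells.

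**Figure D3:**
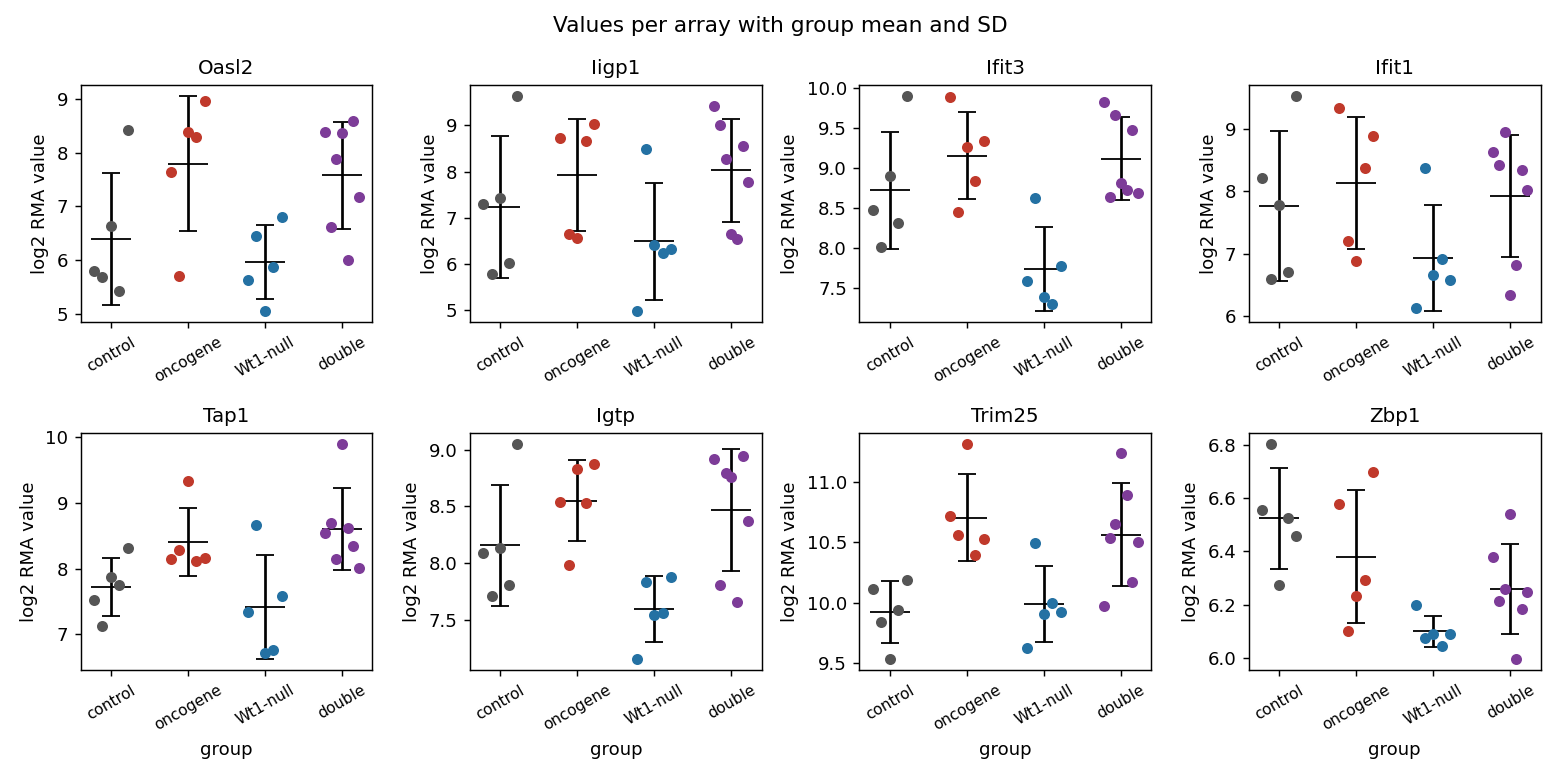
Log2 value of 8 of the genes in each array (points) by group, with the group mean and SD (bars); the vertical axis differs between panels and does not start at 0. Trim25 is higher in the 5 oncogene arrays than in the 5 control arrays, Ifit3 is higher in the 7 double arrays than in the 5 Wt1-null arrays, and in Ifit1, Iigp1 and Tap1 a single Wt1-null array, replicate 2, lies above its group.

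The antigen presentation genes supply peptides and the light chain for MHC class I molecules. All 4 were higher in oncogene than in control cells, by a median of 0.47, and in double than in control cells, by a median of 0.37. Tap1, a subunit of the peptide transporter, stood at 7.53, 7.13, 7.87, 7.75 and 8.32 in the control and at 8.14, 8.29, 9.33, 8.11 and 8.16 in the oncogene group. Its Wt1-null values were 7.34, 8.66, 6.72, 6.76 and 7.59, and its double values ran from 8.01 to 9.90 with a median of 8.55. Wt1-null replicate 2 lay among the double arrays, and the other 4 Wt1-null arrays lay below all of them. Tap1 was higher in double than in Wt1-null cells by 1.20 ± 0.34, 2.29-fold (limma adjusted p = 0.124). Without Wt1-null replicate 2 this difference was 1.51 (limma adjusted p = 0.00798), where 5.08% of all genes passed. With double replicate 2 left out too the difference was 1.49 (limma adjusted p = 0.0161). Against the control, double cells were higher by 0.89 ± 0.34 (0.13). With the accession set as a fixed block, the difference of Tap1 between double and Wt1-null cells was 0.84. With the mean of all probe sets of Tap1 it was 0.31, but the other probe sets were dimmer, at most 6.15 in any array.

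B2m, the MHC class I light chain, had group means of 13.53 ± 0.13 (SD, n = 5) in control, 13.81 ± 0.27 (n = 5) in oncogene, 13.81 ± 0.19 (n = 5) in Wt1-null and 13.91 ± 0.27 (n = 7) in double arrays. Here the Wt1-null cells matched the oncogene cells to the second decimal, and the control was lowest. B2m was higher in double than in control cells by 0.38 ± 0.13 (limma adjusted p = 0.0964), and it passed without double replicate 4 (adjusted p = 0.0331). Psmb8, an immunoproteasome subunit, had 7.84, 7.46, 7.86, 7.69 and 8.45 in the control, 8.72, 7.47, 8.01, 8.95 and 9.14 in the oncogene group and 6.83, 7.33, 7.05, 7.64 and 8.54 in the Wt1-null group. In double arrays it ran from 7.55 to 9.21 (median 8.22), and all groups overlapped. Psmb9, another such subunit, had group means from 6.92 in Wt1-null to 7.43 in oncogene cells. Cxcl10, a chemokine that attracts T cells, was higher in oncogene than in control cells by 0.33 ± 0.17 (adjusted p = 0.362), and its group means ran from 6.24 in the control to 6.56 in oncogene cells.

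The spread within groups was the larger part of the variation, as it was over all genes. The share of the spread that lay between groups had a median of 22.8% over the 34 genes, beside 17.6% over all genes. The pooled SD within groups had a median of 0.44 over the 34 genes, beside 0.26 over all genes, and 28 of the 34 had a pooled SD above the median of all genes. In all 34 genes the widest range within a group exceeded the range of the 4 group means. Single arrays spread more widely than means do, and the share over all genes was not computed, so this count does not set the 34 genes apart. The extremes often fell in the same arrays. Control replicate 5 was the highest of its group in 25 of 34 genes, and in 20.5% of all genes. Control replicate 2 was the lowest of its group in 18 of 34 (20.8% of all genes), oncogene replicate 3 in 19 of 34 (14.8%) and Wt1-null replicate 1 in 18 of 34 (16.2%). Of all 22 arrays, Wt1-null replicate 1 was the lowest in 11 genes (2.61% of all genes) and control replicate 5 the highest in 9 (2.87%).

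**Figure D4:**
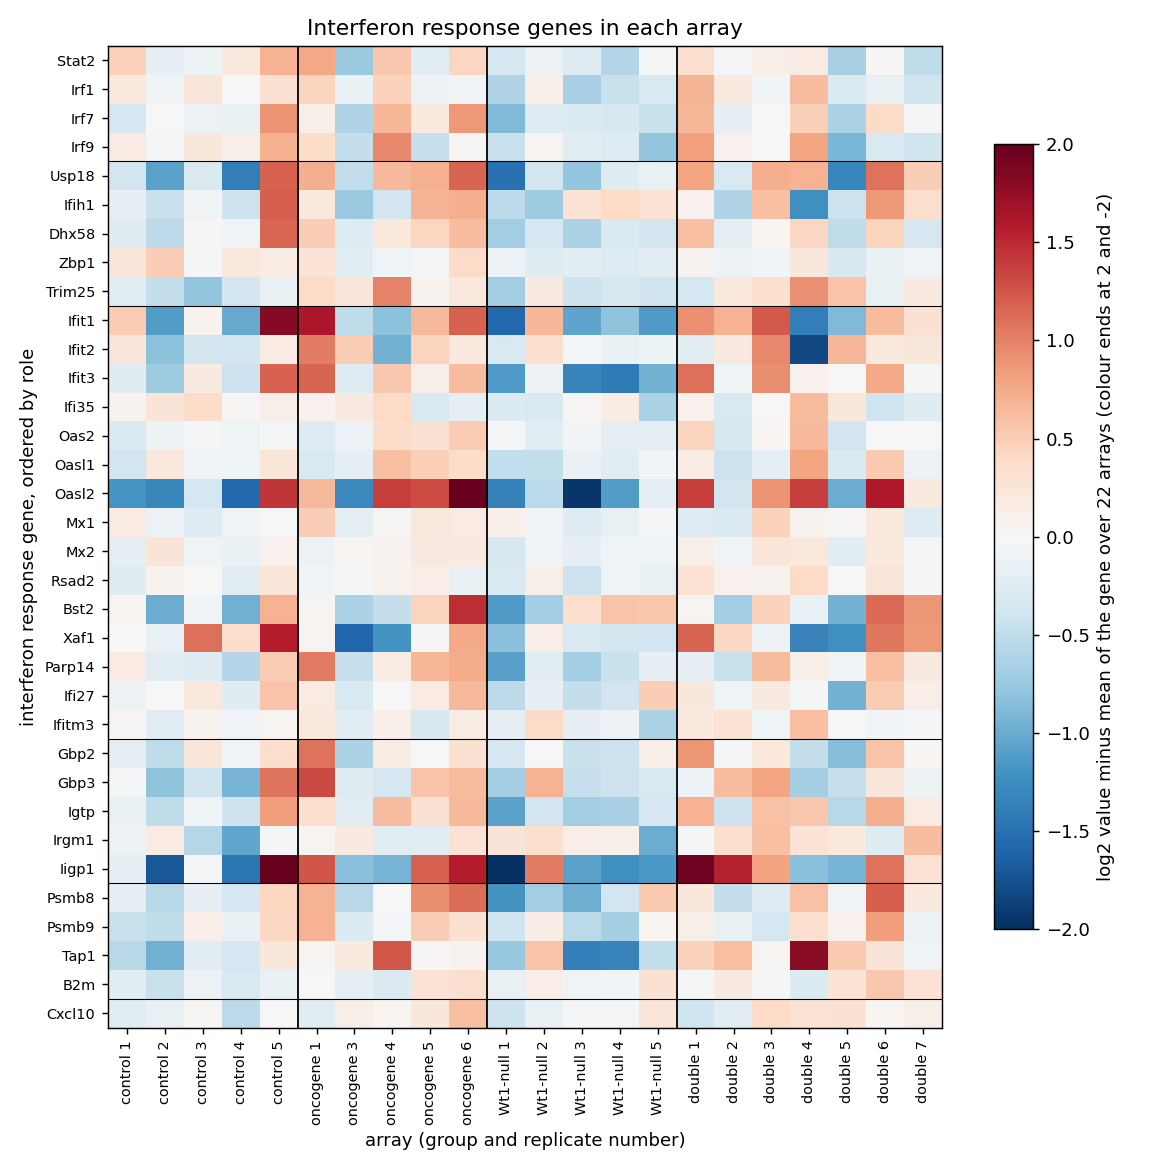
Log2 value minus the gene's mean over 22 arrays (colour, from −2 to 2, with values beyond at the end colours) for the 34 genes (rows, by role) in each array (columns, by group and replicate). Control replicate 5 is highest of its group in 25 of the 34 genes and oncogene replicate 3 lowest of its group in 19, so many columns are red or blue across roles.

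Other measures also differed between these arrays, but not all in step with the interferon response genes. The mean of the 9 fibroblast markers was 13.32 in control replicate 5 and 12.28 in control replicate 2, and 12.65 in oncogene replicate 3 against 13.59 in oncogene replicate 6, the highest of that group for the interferon response genes. Wt1-null replicate 1, the lowest array for the interferon response genes, stood at 12.66, above Wt1-null replicates 3 and 4 at 12.51 and 12.56. By group the marker mean was 12.95 in control, 13.31 in oncogene, 12.85 in Wt1-null and 13.10 in double arrays, the same order as the means of the interferon response genes. The signal of the 3′ actin control probe set exceeded that of the 5′ one by 0.17, 0.31, 0.16 and 0.31 in control, oncogene, Wt1-null and double arrays. Within groups it was 0.34 in control replicate 5 and 0.16 in control replicate 2, but 0.50 in oncogene replicate 3 and 0.12 in oncogene replicate 6. For Gapdh the same difference was 0.06, 0.01, −0.06 and 0.03 in the 4 groups. The part of these measures in the results was not tested. The mean of the leukocyte markers stayed between 5.78 and 6.22 in all arrays.

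Other genes of the interferon pathway, from a list of 106 that holds none of the 36, were measured for 89. In the comparison of oncogene with control cells 1 passed (1.12%, beside 2.04% of all genes), in that of double with control cells 5 passed (5.62%, beside 5.93%), and in the other 5 comparisons 0 passed in limma's test. These shares were below those of all genes, except in double against oncogene cells, where 0% of all genes passed too. At an unadjusted p below 0.05 there were 14 for oncogene against control (15.7%, beside 15% of all genes), 8 for Wt1-null against control (8.99%, beside 12.7%) and 18 for double against control (20.2%, beside 20.1%). There were 22 for double against Wt1-null (24.7%, beside 14.8%) and 19 for oncogene against Wt1-null (21.3%, beside 7.14%). Double against oncogene had 3 (3.37%, beside 3.09%) and the interaction 5 (5.62%, beside 8.55%). Over the 89 genes the median difference was 0.18 in double against Wt1-null and 0.22 in oncogene against Wt1-null cells, with 67 and 66 genes higher.

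Of the ligands, interferon beta (Ifnb1) had group means from 5.53 to 5.72, and 0 of 7 measured ligand genes passed in any comparison in limma's test, with at most 1 at an unadjusted p below 0.05. The receptor chain Ifnar1 rose in oncogene cells, from 9.55 ± 0.33 (SD, n = 5) to 10.13 ± 0.07 (n = 5), by 0.58 ± 0.15 (limma adjusted p = 0.0461). This call was lost when any of 16 of the 22 arrays was left out (all but control replicate 1, Wt1-null replicate 2 and double replicates 1 to 4), with adjusted p between 0.00958 and 0.147 over the 22, and a dimmer probe set gave 0.35. In double cells Ifnar1 lay 0.41 ± 0.14 below the oncogene cells (adjusted p = 1). The other chain, Ifnar2, had an interaction of 0.51 ± 0.19 (adjusted p = 0.579).

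In double cells Pml, which organises nuclear bodies, rose from a control mean of 8.60 ± 0.20 (SD, n = 5) to 10.11 ± 0.88 (n = 7), by 1.51 ± 0.35 (limma adjusted p = 0.0133). The 7 double arrays, from 9.32 to 11.79, lay above all control arrays, from 8.39 to 8.91, and another probe set gave 1.64. In oncogene cells Pml was higher by 1.29 ± 0.38 (adjusted p = 0.0783), which passed without double replicate 4 (0.016). Cmpk2, a mitochondrial nucleotide kinase next to Rsad2 in the genome, rose by 1.93 ± 0.50 (adjusted p = 0.0256), and this call was lost without control replicate 1, 2, 3 or 4 (adjusted p up to 0.074). The other probe set of Cmpk2 gave 0.51 (adjusted p = 0.239), and the mean of its probe sets 1.22, which did not pass; the call was also lost with the accession set as a fixed block (0.0559). Ifi47, another inducible GTPase, rose by 0.75 ± 0.22 (adjusted p = 0.0442), a call lost when any of 12 of the 22 arrays was left out (control replicates 1 to 4, oncogene 5 and 6, Wt1-null 3 and 4, double 1, 3, 4 and 6). The genes that fell were Samhd1 and Isg20.

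Samhd1, which degrades deoxynucleotides, fell from 10.47 ± 0.16 (n = 5) to 9.35 ± 0.57 (n = 7), by 1.12 ± 0.27 on the log2 scale (limma adjusted p = 0.0157). Its 4 other probe sets gave differences from −0.49 to −0.27 that did not pass. Isg20, an exonuclease, fell from 9.15 ± 0.27 (n = 5) to 8.0005 ± 0.53 (n = 7), by 1.15 ± 0.28 (adjusted p = 0.0178), and this call was lost without control replicate 3 (0.0614). Thus of the 5 pathway genes that passed, 3 rose and 2 fell, in cells that differ from the control by virus as well as by genotype.

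Among those that did not pass, Tor3a, an ATPase of the torsin family, was lower in Wt1-null than in control cells by 0.82 ± 0.17 (limma adjusted p = 0.0652), with an interaction of 0.82 ± 0.23 (0.579). The first difference passed without Wt1-null replicate 1, double replicate 1 or double replicate 4 (adjusted p down to 0.0264). With the accession set as a fixed block this difference was −0.97 (limma adjusted p = 0.264). Socs1, an inhibitor of the receptor kinases, was lower there by 0.57 ± 0.18 (0.232). In double against Wt1-null cells, Ikbke, a kinase that activates Irf3, was higher by 1.02 ± 0.24 and Uba7, the enzyme that activates Isg15 for conjugation, by 0.77 ± 0.18 (both 0.081). In oncogene against Wt1-null cells, Irgm2 was higher by 1.39 ± 0.30 (0.147) and Uba7 by 0.79 ± 0.20 (0.225). With the accession set as a block, Uba7 was higher by 0.52 in double and by 0.54 in oncogene than in Wt1-null cells. Ikbke, Uba7 and Irgm2 passed in these comparisons without Wt1-null replicate 2, the array that also decided the calls of Ifit3, Tap1 and Rsad2. The calls over all genes moved with it too. Without this array 925 genes (5.08%) rather than 15 were called in double against Wt1-null cells. In oncogene against Wt1-null cells 193 genes (1.06%) rather than 3 were called. Ifi27l2a was lower in double than in oncogene cells by 1.31 ± 0.49 (adjusted p = 1).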

How the data were processed

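RNA of MEFs in 4 groups was hybridised to 22 Affymetrix mouse expression arrays. The authors deposited log2 values, normalised by RMA in Affymetrix Expression Console, per the submitters' processing notes; the version is not given in the sources used here. RMA subtracts background, gives all arrays 1 distribution and summarises probes, so it compresses differences near the floor and hides a change shared by most transcripts. Values ran from 3.29 to 15.14; the number of arrays limits the precision. Of 45101 probe sets, 34945 were annotated with 1 gene and 932 with several; RefSeq gene IDs matched for 34741, and 0 symbols changed.

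Group means of 18193 genes, 1 probe set each, were fitted with limma 3.58.1 in R 4.3.3 (lmFit, eBayes, all 22 arrays, no filter on low values). Benjamini-Hochberg adjustment ran over all genes, with calls at an adjusted p below 0.05; 7 comparisons were made. The fit was tested on simulated data. Values in every array are given for the 12 members with the largest range of group means, differences for the 4 members and 2 pathway genes with the smallest p in each comparison, and for every called gene. The members and lists were chosen with earlier results of these data known. The oncogene's name is not reported here. Alternatives covered probe set choice, normalisation, a filter on dim genes, variance model, array weights, sets of accession numbers, the replicate number and single arrays left out.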

Additional observations from a re-analysis of the deposited data

Results flagged for a closer look

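In 8 of 140 groups of arrays, 1 array lay far from the others of its group by Dixon's test; about 1 in 20 groups is picked out by chance. Control replicate 5 was high for Ifih1, at 8.98 on the log2 scale, and for Irf7, at 8.22. Tap1 was high in oncogene replicate 4, at 9.33, and in double replicate 4, at 9.90, which are the arrays with the lowest mean correlation to the others over genes. Ifit2 was low in double replicate 4, at 7.06. Gbp3 was high in Wt1-null replicate 2, at 7.73, and Irgm1 low in Wt1-null replicate 5, at 8.28. Ifi27 was low in double replicate 5, at 10.11.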

How the results depend on the processing

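The median difference of the 34 genes kept its direction under the alternatives run in every comparison except double against oncogene, where it ranged from −0.22 to 0.0006; in the others it ranged from 0.17 to 0.41 for oncogene against control, −0.35 to −0.13 for Wt1-null against control, 0.11 to 0.29 for double against control, 0.28 to 0.44 for double against Wt1-null, 0.36 to 0.56 for oncogene against Wt1-null and 0.006 to 0.27 for the interaction. The count of interferon response genes called moved from 0. With array weights it was 10 for oncogene against control, 8 for Wt1-null against control, 5 for double against control, 10 for double against Wt1-null and 15 for oncogene against Wt1-null, where 4417, 6016, 6036, 3501 and 1377 genes were called over all genes; the cause was not tested. With single arrays left out it ranged from 0 to 1 for oncogene against control, double against control and oncogene against Wt1-null, and from 0 to 3 for double against Wt1-null. With both Wt1-null replicate 2 and double replicate 2 left out it was 3 for double against Wt1-null and 1 for oncogene against Wt1-null. Over all 18193 genes 671 and 174 were called there. With oncogene replicate 4 and double replicate 4 left out it was 2 for double against control, beside 1831 over all genes. With only the arrays of the groups compared it was 1 for oncogene against control and 1 for Wt1-null against control, beside 770 and 599 over all genes. Without genes of a mean below 6 it was 1 for oncogene against control, beside 474 of the 12445 genes then tested. Genes called over all genes ranged with single arrays left out from 139 to 683 (oncogene against control), 2 to 121 (Wt1-null against control), 568 to 1729 (double against control), 0 to 925 (double against Wt1-null), 1 to 193 (oncogene against Wt1-null) and 0 to 5 (interaction). With the mean of all probe sets the interaction of Xaf1 was −0.77, the reverse of 1.45. The replicate block made 1 member pass in double against control, Trim25 (adjusted p = 0.0461), made Tor3a pass in Wt1-null against control (0.0317), ended the calls of Ifnar1 (0.126) and Cmpk2 (0.0585) and changed no other call of a named gene. Arrays of 1 number in different groups correlated in their deviations by −0.47 to 0.77 (28 pairs, 13 above 0.1). Arrays of different numbers did so by −0.64 to 0.71 (152 pairs, 51 above 0.1). By these deviations 4 of 22 arrays were closest to their own number. Some of the most alike arrays of different groups did share a number: Wt1-null and double replicates 2, oncogene and double replicates 6, and oncogene and double replicates 3. Oncogene replicate 5 and double replicate 6, also alike, did not. No label says that a number is shared between groups, so the main fit did not pair them, and a pairing of some arrays remains possible.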

Other observations

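The second probe set of Xaf1 fell into separate ranges within groups. It read 8.73, 7.86, 5.88, 5.35 and 5.32 in control replicates 1 to 5, and 9.44, 8.92, 10.49, 8.82 and 9.72 in oncogene replicates 1, 3, 4, 5 and 6. In Wt1-null replicates 1 to 5 it read 5.12, 5.08, 8.21, 8.42 and 8.48, and in double replicates 1 to 7 it read 6.06, 5.35, 8.9997, 9.25, 8.38, 5.23 and 5.23. Every value lay either between 5.08 and 6.06 or between 7.86 and 10.49. Control replicates 3, 4 and 5, low on this probe set, were the highest of their group on the probe set used in the report (9.95, 9.20 and 10.42).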
